A study of Homo sapiens with 14 samples.

Results

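Protein tyrosine phosphatases were taken as the genes of the count table whose symbols begin with PTPR followed by a letter, or with PTPN followed by a number. The rule found 36 genes of 20049, of which 19 have receptor-type symbols (PTPR) and 17 non-receptor symbols (PTPN). They were measured in 14 established human neuroblastoma cell lines, SH-SY5Y, SK-N-SH, IMR5-75, IMR32, SK-N-AS, LS, NGP, GI-ME-N, NBL-S, SK-N-FI, CLB-GA, SK-N-DZ, Lan-6 and SK-N-BE(2)C. Neuroblastoma is a childhood tumour of the sympathetic nervous system. The labels give no treatment, genotype or class, all were kept in serum-containing RPMI1640 or DMEM free of antibiotics, and each line is 1 library of total RNA. SH-SY5Y is a subclone of SK-N-SH and IMR5-75 a subclone of IMR32, which is general knowledge and not in the labels. No line has a replicate, so nothing measures the error of a difference between lines, and intervals on single values cover counting error only.

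Protein tyrosine phosphatases remove phosphate from tyrosine residues and so oppose, and in some cases activate, tyrosine kinases. The receptor-type members span the membrane, and many carry adhesion-like outer domains that bind partners on other cells or in the matrix, as in growing axons. Non-receptor members sit in the cytoplasm or on internal membranes and act on signalling from growth factor and cytokine receptors.

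Library totals ranged from 35856642 counts (Lan-6) to 58644013 counts (LS). Levels are given as CPM, the counts of a gene scaled for library size and composition. In 2 libraries, Lan-6 and GI-ME-N, long transcripts read low (rho of the deviation with transcript length -0.41 and -0.37), and in Lan-6 GC-rich ones read high (rho 0.64). Many phosphatase transcripts are long: Lan-6 held the lowest level of 7 members and GI-ME-N of 8, against 6 each after the length and GC trend of each library was removed. Values with the trend removed are therefore given beside those of these libraries where they differ much. The sympathetic neuroblast (adrenergic) markers were lowest in GI-ME-N and SK-N-SH, with list scores of -4.33 and -3.53, then in SK-N-AS (-2.02) and LS (-1.98), and highest in Lan-6 (2.65). A list score is the mean, over a list's genes, of the log2 CPM less the gene's mean over the lines.

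Sequences before a start site are shown for 3 members that were high in different numbers of lines: PTPRC was high in 1 line, PTPRR in few, and PTPRS in all 14. Each sequence is the 250 bases before a RefSeq start site on GRCh38.p14, written 5′ to 3′ on the gene's strand, with the dinucleotide CG in capitals. PTPRC lies at chr1:198638790-198639039 on the plus strand and PTPRR at chr12:70788921-70789170 on the minus strand, both at a start inside the annotated gene. PTPRS lies at chr19:5340813-5341062 on the minus strand.
PTPRC: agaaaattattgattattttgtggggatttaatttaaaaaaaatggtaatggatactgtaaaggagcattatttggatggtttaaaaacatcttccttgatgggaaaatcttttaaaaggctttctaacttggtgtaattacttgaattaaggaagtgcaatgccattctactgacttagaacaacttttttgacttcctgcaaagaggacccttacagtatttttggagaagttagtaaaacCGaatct
PTPRR: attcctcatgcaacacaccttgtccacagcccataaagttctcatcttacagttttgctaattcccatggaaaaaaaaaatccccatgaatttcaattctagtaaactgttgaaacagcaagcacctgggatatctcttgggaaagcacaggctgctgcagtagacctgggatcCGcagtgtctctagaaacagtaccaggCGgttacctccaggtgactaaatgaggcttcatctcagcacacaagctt
PTPRS: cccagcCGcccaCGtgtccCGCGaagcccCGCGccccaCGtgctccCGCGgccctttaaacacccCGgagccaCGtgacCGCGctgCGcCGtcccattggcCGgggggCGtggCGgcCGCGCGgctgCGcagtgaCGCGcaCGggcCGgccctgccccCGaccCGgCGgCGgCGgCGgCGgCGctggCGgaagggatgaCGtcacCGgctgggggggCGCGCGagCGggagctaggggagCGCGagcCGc
The printed stretch held 1 CG in PTPRC, 2 in PTPRR and 44 in PTPRS. Over windows of 300 bases (250 before to 50 after the start), 31 of the 36 members had an entry, with a median of 33 CG in the richest entry of each gene against 26 over 13232 genes of the table. No entry of PTPN2, PTPRC, PTPRR or PTPN22 held more than 5 CG, which is 4 of 31 members (12.9%) beside 10.2% of genes. The entries of PTPN2, PTPRC and PTPRR lie inside the gene, and the windows at the annotated 5′ ends of these genes were not examined. The 3 printed genes are examples, and a relation of CG count to the number of lines was not tested. Other members differ from them: PTPN2, with 1 CG in its richest entry, was at 1 CPM or more in all 14 lines. PTPRT, with 53 CG in its richest entry, had 0 counts in 7 lines. The AP-1 core TGANTCA (either strand) was found in PTPN9 alone, in 2% of member promoters against 5.75% of 19174 promoters. The E-box CACGTG, which reads the same on both strands, was found in PTPN3 and PTPRS, in 4% against 8.7%.

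All 36 members reached 10 counts in at least 1 line, and 19 of them (52.8%) were at 1 CPM or more in all 14 lines, the same share as over the whole table (52.8%). Summed over the members, SH-SY5Y was lowest at 1451 CPM and CLB-GA highest at 2263 CPM. Per kb of transcript, the highest medians over lines were those of PTPN11 (35.9 CPM per kb), PTPRS (32.9), PTPN12 (26.2), PTPRA (23.6), PTPRN (23.6), PTPRF (21.2) and PTPN1 (16.5). PTPN11 encodes SHP2, which carries signals from receptor kinases to RAS, PTPN12 a regulator of adhesion and motility, and PTPRA an activator of Src kinases. At the other end PTPRQ and PTPRT had medians of 0.00522 and 0.00290 CPM per kb, and they were the only members with a line at 0 counts (3 and 7 lines). Among the 32 members whose highest line reached 5 CPM, the median SD of log2 CPM over lines was 1.64, beside 0.80 over all such genes. The heatmap of all members shows steady rows and rows lit in few lines.

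**Figure D1:**
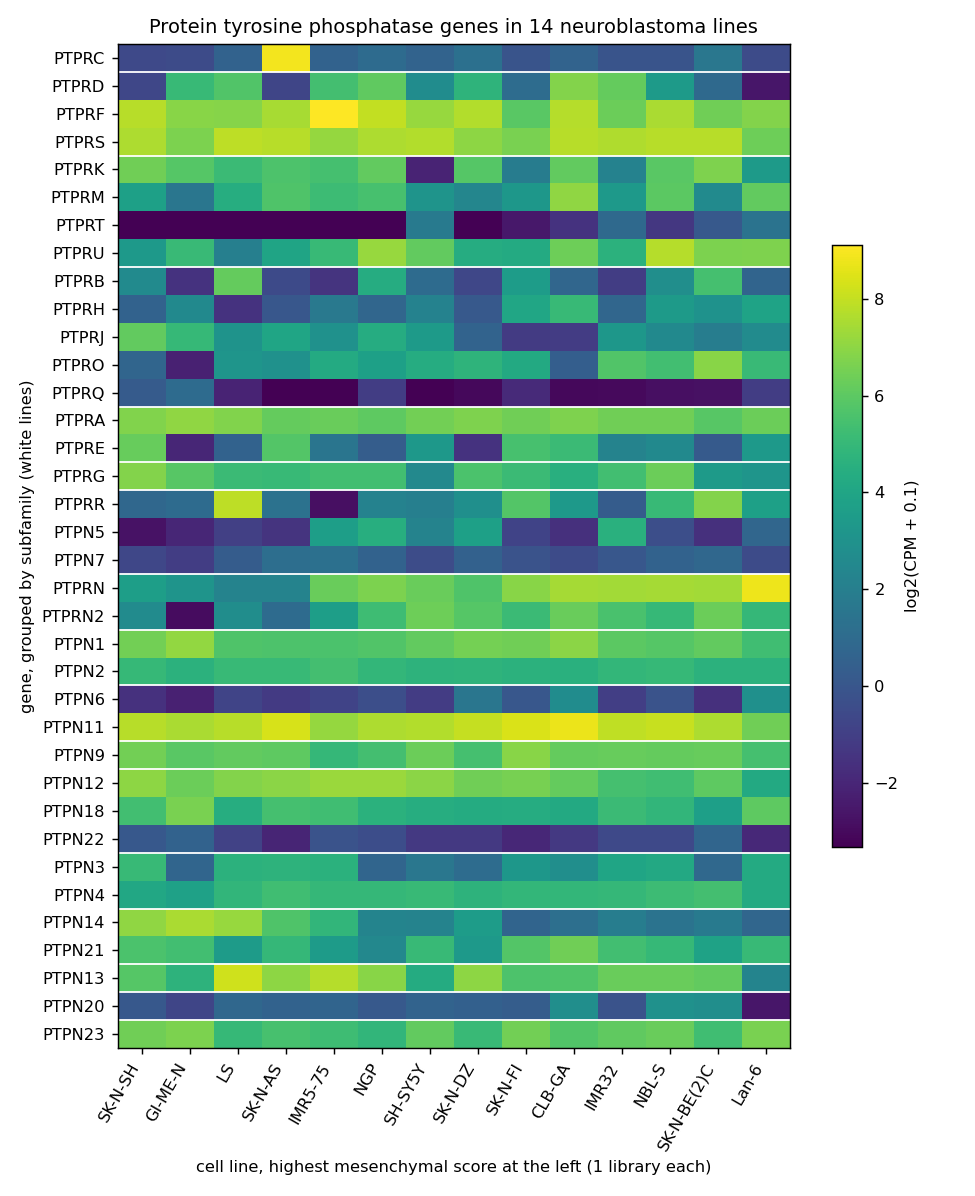
Log2(CPM + 0.1) of the 36 phosphatase genes (rows, grouped by subfamily) in 14 lines (columns, ordered by mesenchymal score, highest at the left). PTPRC is bright in SK-N-AS alone (469.6 CPM), while PTPN11 and PTPRS are bright across all columns and PTPRN is dimmer in the 4 columns at the left.

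PTPRC encodes CD45, the phosphatase that covers the surface of white blood cells and switches on Src kinases there by removing an inhibitory phosphate. It had 19896 counts in SK-N-AS, which is 469.6 CPM (95% exact Poisson interval 463 to 476). In the other lines it reached 2.91 CPM in SK-N-BE(2)C, with 2.33 in SK-N-DZ, 1.96 in NGP, 1.47 in SH-SY5Y, 1.44 in CLB-GA, 1.42 in LS, 1.42 in IMR5-75, 0.849 in SK-N-FI, 0.829 in NBL-S, 0.823 in IMR32, 0.620 in GI-ME-N, 0.610 in Lan-6 (1.14 with the trend removed) and 0.576 in SK-N-SH. SK-N-AS stood 161-fold over the next line, and the other 13 lines lay within a few CPM of each other. By that ratio PTPRC was number 2 of the 11257 genes at 5 CPM or more in SK-N-AS. In that line it made up 21.9% of the members' summed CPM, against at most 0.166% in any other line, and by CPM it was number 194 of all genes.

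CD45 usually marks leukocytes, so 23 other leukocyte genes were read in the same library. In SK-N-AS, 21 of the 23 were under 1 CPM, against 18 (NGP) to 22 (SH-SY5Y) in each other line, and 7 were at 0 counts, among them CD3E, MS4A1, TYROBP, LAPTM5, CD48 and PTPRCAP. PTPRCAP encodes a protein that binds CD45 in lymphocytes, CD3E belongs to the T cell receptor complex, and MS4A1 encodes CD20 of B cells. The markers over 1 CPM in SK-N-AS were CORO1A at 12.9 CPM and ARHGDIB at 1.04 CPM. CD52, a surface protein of lymphocytes, had 27 counts (0.637 CPM) in SK-N-AS, its highest line, against at most 0.169 CPM in the others. The summed level of the list was 15.9 CPM in SK-N-AS and ranged from 12.3 CPM (IMR5-75) to 344 CPM (Lan-6) in the other lines. Of the members known from blood cells, PTPN6, which encodes SHP1, had 0.330 CPM in SK-N-AS, where PTPN22 stood at 0.142 CPM, its lowest level in any line. PTPN7 was at 2.12 CPM in SK-N-AS, its second-highest line, against a 14-line median of 1.04 CPM and a highest level of 2.35 CPM (IMR5-75).

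**Figure D2:**
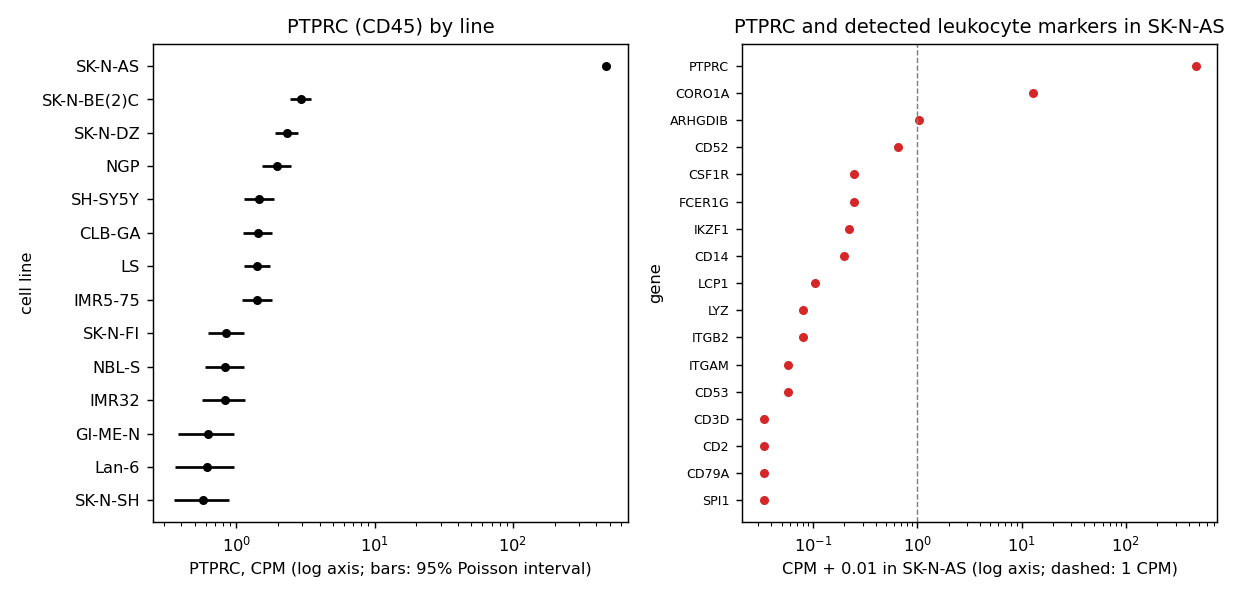
Left, PTPRC in CPM (log axis) by line, with 95% Poisson intervals; right, CPM + 0.01 (log axis) of PTPRC and the leukocyte markers with at least 1 count in SK-N-AS, with a dashed line at 1 CPM. PTPRC reaches 469.6 CPM in SK-N-AS, against 2.91 CPM in the next line, and of the markers shown all but CORO1A and ARHGDIB lie under the dashed line.

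The kinases on which CD45 is known to act were present in SK-N-AS apart from the lymphocyte one. SRC was at 72.8 CPM, FYN at 72.3, YES1 at 104, LYN at 26.0 and CSK, the kinase that adds the inhibitory phosphate, at 65.6 CPM. LCK, the T cell kinase, had 8 counts (0.189 CPM) in SK-N-AS and was at most 0.428 CPM in any line. PTPRC lies on chromosome 1 at 198638457 to 198757476 (GRCh38, GENCODE 29), and the coding genes of the table within 1 Mb did not share its level. In SK-N-AS, DENND1B was at 2.10 CPM against a median of 6.19 CPM in the other lines, C1orf53 at 1.06 CPM against a median of 1.73 CPM in the others, and LHX9 at 0.165 CPM against 5.59 CPM in the others. NEK7, the nearest of them, was at 67.9 CPM in SK-N-AS against a median of 28.9 CPM, and 4 other lines held more. Over 14 lines, the 5 genes outside the family whose log2 CPM followed PTPRC most closely, of 14737, were UNC13C (r = 0.94), PIK3C2G (0.93), NFE4 (0.92), KCNE4 (0.91) and EPHA3 (0.90). These coefficients rest on SK-N-AS, where each of the 5 was highest. EPHA3, an ephrin receptor kinase, was at 267 CPM in SK-N-AS, against no more than 0.620 CPM in any other line.

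PTPRB and PTPRR, side by side on chromosome 12, were both highest in LS. PTPRB (VE-PTP) is known from blood vessel endothelium, and PTPRR acts on MAP kinases in neurons. PTPRB reached 71.7 CPM in LS, with 43.9 in SK-N-BE(2)C, 20.5 in NGP, 11.4 in SK-N-FI, 6.88 in NBL-S, 5.98 in SK-N-SH, 1.90 in SH-SY5Y, 1.60 in CLB-GA, 1.49 in Lan-6 (2.63 with the trend removed), 0.590 in SK-N-AS, 0.534 in SK-N-DZ, 0.374 in IMR32, 0.266 in IMR5-75 and 0.248 in GI-ME-N (0.365 with the trend removed). PTPRR reached 238 CPM in LS, with 111 in SK-N-BE(2)C, 54.4 in SK-N-FI, 32.7 in NBL-S, 13.4 in Lan-6, 10.2 in CLB-GA, 7.16 in SK-N-DZ, 4.44 in NGP, 4.02 in SH-SY5Y, 2.48 for SK-N-AS, 1.92 in GI-ME-N, 1.70 for SK-N-SH, 1.15 in IMR32 and 0.0443 in IMR5-75. LS and SK-N-BE(2)C led for both genes, and across 12 lines without the subclones the pair had r = 0.76.

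In LS both genes belonged to a longer raised stretch. Of the 30 coding genes within 3 Mb of PTPRR, 17 were highest in LS, and NUP107 and TSPAN8 were the outermost of these. The stretch was given these ends after the values were seen, so the share inside it follows largely from that choice. Just outside it, RAP1B was at 265 CPM in LS against a median of 96.6 CPM in the other lines. LGR5, at the other end, was at 20.9 CPM against 21.9 CPM. Of the 18 coding genes from NUP107 to TSPAN8 (chromosome 12, 68686734 to 71441898), 17 were highest in LS. In LS, 17 were at least 4-fold over the median of the other lines. FRS2, an adaptor that recruits SHP2 to growth factor receptors, was at 3657 CPM in LS and CNOT2 at 3552 CPM. Some of these genes were also high outside LS. The highest of the other lines held 996 CPM of CNOT2, 2336 CPM of CPSF6 and 3556 CPM of CCT2. The medians of the other lines were 76.0, 207 and 328 CPM. For RAB3IP and MYRFL the highest other line held 49.0 and 0.242 CPM. In SK-N-BE(2)C only LRRC10, PTPRB, PTPRR and TSPAN8 of the 18 held second place. CNOT2 was at 72.5 CPM there against a median of 76.3 CPM in the other 12 lines, and KCNMB4 at 0.819 CPM against 10.6 CPM. LYZ, one of the leukocyte markers, lies in this stretch and was at 42.1 CPM in LS. DNA copy number was not analysed here.

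**Figure D3:**
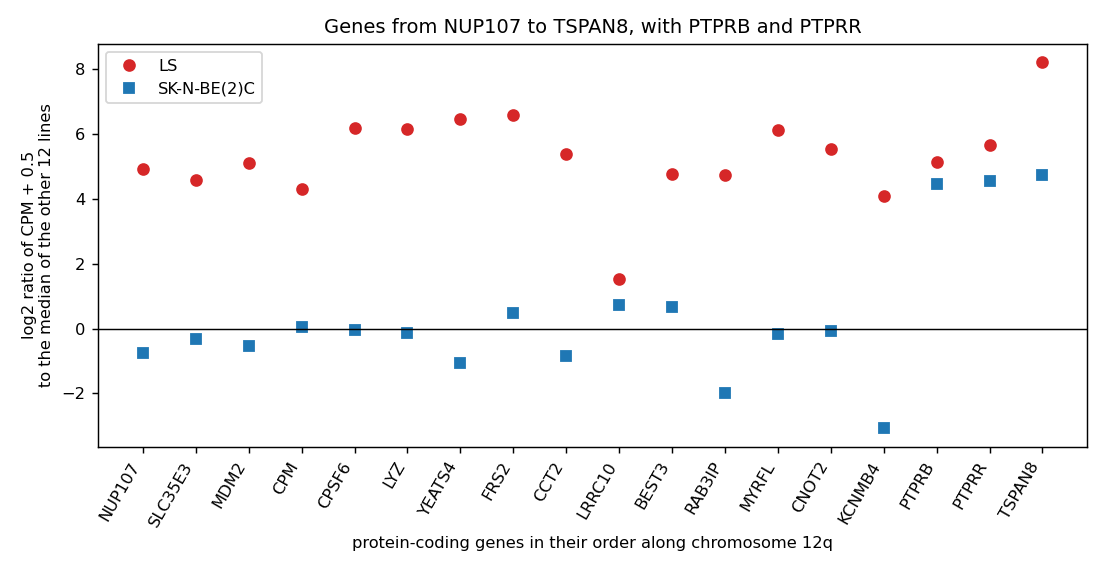
Log2 ratio of CPM + 0.5 to the median of the other 12 lines (vertical axis) for 18 genes in their order along chromosome 12q (horizontal axis), in LS (circles) and SK-N-BE(2)C (squares). The circles stand above 0 from end to end, while the squares pass 4 on this scale only at PTPRB, PTPRR and TSPAN8, where SK-N-BE(2)C was at 43.9, 111 and 21.9 CPM.

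A highest line at least 10 times the 14-line median, and at or over 5 CPM, was found for 7 of 32 members, beside 15.4% of 14769 genes. They were PTPRC, PTPRB, PTPRR, PTPRE, PTPN5, PTPN6 and PTPN14. PTPRE, a receptor-type relative of PTPRA, reached 74.8 CPM in SK-N-SH, with 54.5 in SK-N-AS, 44.5 in SK-N-FI, 35.6 in CLB-GA, 10.2 in Lan-6, 9.68 in SH-SY5Y, 5.80 in NBL-S, 4.59 in IMR32, 2.77 in IMR5-75, 1.41 in LS, 1.18 in NGP, 1.05 in SK-N-BE(2)C, 0.257 in SK-N-DZ and 0.155 in GI-ME-N. PTPN5 encodes STEP, a phosphatase of neurons that acts on MAP kinases and glutamate receptors. It was at 23.3 CPM in IMR32, 22.4 in NGP, 13.4 in SK-N-DZ, 12.6 in IMR5-75, 4.61 in SH-SY5Y, 1.63 in Lan-6 (0.965 with the trend removed), 0.704 in NBL-S, 0.469 in SK-N-FI, 0.411 in LS, 0.260 in SK-N-AS, 0.232 in CLB-GA, 0.228 in SK-N-BE(2)C, 0.155 in GI-ME-N and, lowest, 0.0549 in SK-N-SH. PTPN6 was at 7.36 CPM in Lan-6 (4.12 with the trend removed), 6.50 in CLB-GA, 2.82 in SK-N-DZ, 0.939 in SK-N-FI, 0.808 in NBL-S, 0.699 in NGP, 0.480 in LS, 0.465 in IMR5-75, 0.399 in IMR32, 0.367 in SH-SY5Y, 0.330 in SK-N-AS, 0.247 in SK-N-SH, 0.228 in SK-N-BE(2)C and 0.124 in GI-ME-N. PTPRE and PTPN5 were thus high in different lines, and PTPN6 stayed under 1 CPM in all lines but Lan-6, CLB-GA and SK-N-DZ.

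Across 12 lines without the subclones, each gene's slope on a mesenchymal score was fitted with edgeR's quasi-likelihood test, in log2 CPM per SD of the score. The score averages 15 markers such as VIM, FN1 and PRRX1, and the mesenchymal state is a less differentiated, migratory form of neuroblastoma cells. It was highest in SK-N-SH (5.62) and GI-ME-N (4.96), followed by LS (1.46) and SK-N-AS (0.70), and lowest in Lan-6 (-2.01). PTPN14 rose with the score, and PTPRN, PTPRO and PTPRT fell, at an adjusted p under 0.05. That is 1 of 36 members rising, beside 3.6% of the 18198 genes tested, and 3 of 36 falling, beside 2.27%. The count over all genes was 1069, and it was 450 without GI-ME-N, 600 without SK-N-SH and 1727 without Lan-6. In bulk RNA, fewer cells of a kind and less RNA per cell cannot be told apart.

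PTPN14 encodes a cytoplasmic phosphatase known to bind and restrain YAP1, the co-activator of the Hippo pathway. It was at 184 CPM in GI-ME-N (263 with the trend removed), 146 in LS, 130.2 in SK-N-SH, 50.7 in SK-N-AS, 29.2 in IMR5-75, 11.5 in SK-N-DZ, 4.71 in NGP, 4.68 in SH-SY5Y, 3.74 in IMR32, 3.32 in SK-N-BE(2)C, 2.55 in NBL-S, 2.24 in CLB-GA, 1.63 in Lan-6 (2.48 with the trend removed) and 1.53 in SK-N-FI. The 4 lines with the highest mesenchymal scores were also the 4 highest for PTPN14. Its slope was 2.74 (SE 0.47, adjusted p = 0.00459, edgeR), and the call held in all 20 alternative fits.

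PTPRN and PTPRN2 encode IA-2 and phogrin, catalytically inactive members in the membrane of dense-core vesicles, where neuroendocrine cells store hormones and transmitters. PTPRN was at 444 CPM in Lan-6 (265 with the trend removed), 175 in CLB-GA, 172 in NBL-S, 169 in IMR32, 167 in SK-N-BE(2)C, 118 in SK-N-FI, 101 in NGP, 77.7 in IMR5-75, 77.1 in SH-SY5Y, 51.5 in SK-N-DZ, 12.3 in SK-N-SH, 8.65 in GI-ME-N, 4.64 in LS and 4.56 in SK-N-AS. The 4 lowest lines, at 12.3 CPM or less, were the 4 with the highest mesenchymal scores. The slope was -1.66 (SE 0.39, edgeR adjusted p = 0.0250). The adjusted p was 0.118 without GI-ME-N and 0.0516 without SK-N-SH. PTPRN2 had a slope of -1.50 (SE 0.50) that did not pass (edgeR adjusted p = 0.101), with SH-SY5Y highest at 81.3 CPM, GI-ME-N lowest at 1 count (0.0310 CPM), and a median of 34.1 CPM. LS (6.70 CPM), SK-N-SH (6.31), SK-N-AS (1.94) and GI-ME-N were its 4 lowest lines too. It was called with DESeq2 (adjusted p = 0.00528), with limma (0.00629) and with the subclones in place of their parents (edgeR adjusted p = 0.0106).

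PTPRO is known from neurons and from kidney podocytes. It reached 119 CPM in SK-N-BE(2)C, with 53.5 in IMR32, 40.2 in NBL-S, 33.9 in Lan-6 (50.4 with the trend removed), 27.4 in SK-N-DZ, 20.7 in SH-SY5Y, 19.4 in IMR5-75, 18.4 in SK-N-FI, 13.4 in NGP, 8.90 in LS, 7.79 in SK-N-AS, 1.54 in SK-N-SH, 1.20 in CLB-GA and 0.124 in GI-ME-N. CLB-GA, with a mesenchymal score of -1.34, was as low as SK-N-SH. The slope was -2.05 (SE 0.49, edgeR adjusted p = 0.0259), and the adjusted p was 0.0995 without GI-ME-N and 0.0517 without SK-N-BE(2)C. PTPRT, an adhesion-type receptor phosphatase of the brain, was at 3.30 CPM in SH-SY5Y, 2.54 in Lan-6, 1.77 in IMR32, 1.02 in SK-N-BE(2)C, 0.311 in NBL-S, 0.253 in CLB-GA and 0.0722 in SK-N-FI. It had 0 counts in GI-ME-N, LS, SK-N-SH, SK-N-AS, NGP, SK-N-DZ and IMR5-75, which allows up to 3 counts, or 0.0514 to 0.0930 CPM. Its fitted slope of -8.21 (SE 1.23, edgeR adjusted p = 0.00330) depends on how those zeros are treated and is no bound. The PTPRT call was lost with limma on the log2 table, with all 14 lines, and with the subclones in place of their parents.

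**Figure D4:**
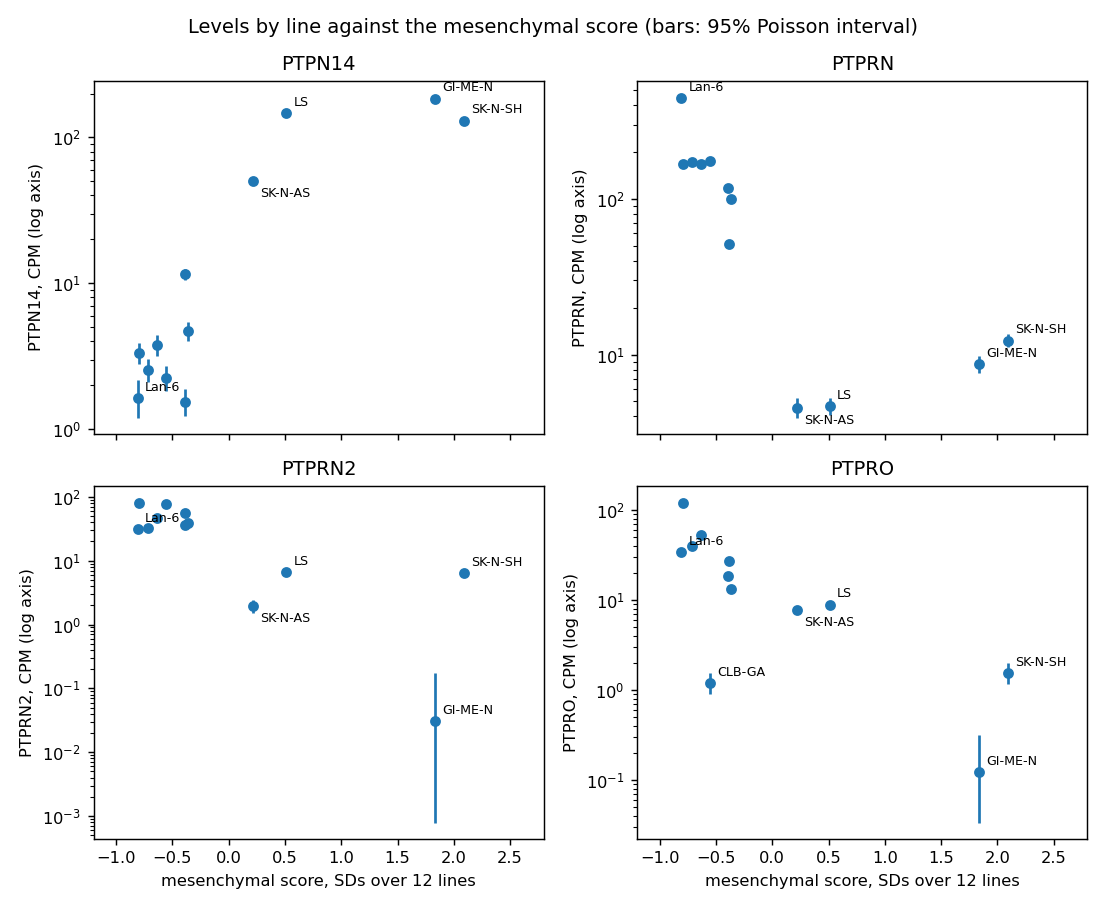
Levels of PTPN14, PTPRN, PTPRN2 and PTPRO in CPM (log axis, bars are 95% Poisson intervals) against the mesenchymal score in SDs, for 12 lines. PTPN14 is at most 11.5 CPM in the 8 lines at the left and reaches 184 CPM in GI-ME-N, and PTPRN is at most 12.3 CPM in the 4 lines at the right.

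Over the same 12 lines and 32 members, the lowest r of all 496 pairs was that of PTPN14 with PTPRN (-0.94), followed by PTPN14 with PTPRN2 (-0.80), while PTPRN and PTPRN2 had r = 0.75. The median over pairs was 0.03. PTPN14 had r = 0.88 with the mesenchymal score and -0.94 with the adrenergic one, and PTPRN had -0.77 and 0.88. These are descriptions over lines that share depth and composition effects. Among genes of related function, the ligands of receptor phosphatases had 2 of 31 tested members that rose with the mesenchymal score (IL1RAP, slope 1.19, and TNC, 2.83) and 3 that fell (CNTN1, -2.88, NRCAM, -2.47, and L1CAM, -1.72). Of 11 Src-family and related kinases tested, LYN fell (-1.49). Of 15 partners of SHP2, IRS1 rose (1.32), and of 13 targets of PTPN1 and PTPN2, JAK1 rose (0.52). Of 38 other tyrosine and dual-specificity phosphatases, DUSP1 (1.31) and DUSP14 (1.01) rose. All of these passed edgeR's test at an adjusted p under 0.05, beside 3.6% of all genes rising and 2.27% falling, and the list medians were -0.45, -0.42, 0.15, 0.08 and -0.003 beside -0.05 over all genes.

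No member was called on the level of MYCN, the transcription factor amplified in many neuroblastomas, beside 1.1% of 17768 genes rising and 2.5% falling by edgeR's test. At an unadjusted p under 0.05 there were 9 of 36 members, beside 4445 of 17768 genes. DESeq2 called 7 members, beside 3137 of 17751 genes, and limma called 0. The nearest were PTPRC, with a slope of -2.56 (SE 0.66, edgeR adjusted p = 0.0527), and PTPN5, with 2.52 (SE 0.66, edgeR adjusted p = 0.0539). The PTPRC slope was 0.67 without SK-N-AS, so its sign rested on that line. The count over all genes was 641 and was 0 without IMR32, without NGP or without SK-N-DZ, and 1529 without SK-N-AS. On the antigen presentation score, made from 15 genes of the MHC class I pathway, edgeR called no gene in either direction (0% and 0% of 18198) and no member. At an unadjusted p under 0.05 there were 2530 genes (13.9%) and 4 of 36 members, DESeq2 called 1309 genes of 18185 and 4 members, and limma called 0. The smallest adjusted p of a member was 0.142 (edgeR), for PTPN5 with a slope of -2.60.

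PTPN1 and PTPN2 encode PTP1B and TC-PTP, which dampen insulin and cytokine signalling through JAK kinases, and PTPN2 is known to restrain the response of tumour cells to interferon. PTPN1 was at 137 CPM in GI-ME-N, 122 in CLB-GA, 90.5 in SK-N-DZ, 87.1 in SK-N-SH, 84.5 in SK-N-FI, 70.9 in SK-N-BE(2)C, 69.5 in SH-SY5Y, 62.4 in IMR32, 56.8 in NBL-S, 53.9 in NGP, 51.1 in LS, 49.3 in SK-N-AS, 47.5 in IMR5-75 and 39.8 in Lan-6. PTPN2 was at 42.4 CPM in IMR5-75, 33.3 in LS, 32.8 in SK-N-AS, 32.4 in NBL-S, 32.1 in SK-N-SH, 29.7 in IMR32, 29.6 in NGP, 27.2 in SK-N-DZ, 26.4 in SH-SY5Y, 25.5 in SK-N-BE(2)C, 25.5 in Lan-6 (40.1 with the trend removed), 25.3 in SK-N-FI, 24.98 in GI-ME-N and 23.4 in CLB-GA. Its SD of log2 CPM was 0.23, the lowest of the members. PTPN11 was at 423 CPM in CLB-GA, 339 in SK-N-FI, 329 in SK-N-AS, 266 in NBL-S, 257 in SK-N-DZ, 246 in IMR32, 222 in LS, 216 in SK-N-SH, 204 in SH-SY5Y, 194 in SK-N-BE(2)C, 193 in NGP, 186 in GI-ME-N, 143 in IMR5-75 and 86.7 in Lan-6. With the trend removed PTPN11 was at 146 CPM in Lan-6, and IMR5-75 was lowest at 132 CPM. The lowest level of any of the 3 in any line was 23.4 CPM. PTPN2 and PTPN11 have processed pseudogenes and PTPN20 a near-identical copy, so their counts are less certain.

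PTPRD, PTPRF and PTPRS form the LAR group, which guides axons and builds synapses, and PTPRD is often deleted in neuroblastoma. PTPRD was at 112 CPM in CLB-GA, 72.6 in IMR32, 66.6 in NGP, 52.4 in LS, 42.5 in IMR5-75, 33.3 in GI-ME-N (46.8 with the trend removed), 26.9 in SK-N-DZ, 10.96 in NBL-S, 6.61 in SH-SY5Y, 1.99 in SK-N-FI, 1.80 in SK-N-BE(2)C, 0.521 in SK-N-SH, 0.496 in SK-N-AS and 0.0678 (2 counts) in Lan-6. With the trend removed Lan-6 was still lowest, at 0.119 CPM. PTPRD thus ran from 2 counts to 112 CPM, with an SD of log2 CPM of 3.17, the highest of the members. PTPRF was at 553 CPM in IMR5-75 and between 60.7 and 248 CPM in the others, and PTPRS between 83.2 CPM in Lan-6 (55.1 with the trend removed) and 234 CPM in LS. In the R2B group of cell-to-cell adhesion receptors, PTPRK had 0.138 CPM (6 counts) in SH-SY5Y and was highest in SK-N-BE(2)C (104 CPM), PTPRM was highest in CLB-GA (132 CPM) and PTPRU in NBL-S (213 CPM). Of the rest, PTPRJ and PTPRG were highest in SK-N-SH (68.9 and 112 CPM), PTPRH and PTPN21 in CLB-GA (32.8 and 85.0 CPM), and PTPN13 in LS (298 CPM).

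SH-SY5Y was compared with its parent SK-N-SH by the ratio of CPM + 0.5, over genes at 1 CPM or more in either line. SH-SY5Y was at least 4-fold higher for 7 of 33 members, beside 6.86% of 15062 genes, and at least 4-fold lower for 6 of 33, beside 8.59%. The higher ones were PTPRN2 (81.3 CPM in SH-SY5Y against 6.31 CPM in SK-N-SH), PTPRO, PTPN5, PTPRT, PTPRD, PTPRU and PTPRN. The lower ones were PTPRK (0.138 CPM in SH-SY5Y against 84.7 CPM in SK-N-SH), PTPN14 (4.68 CPM in SH-SY5Y against 130.2 CPM in SK-N-SH), PTPRG, PTPN3, PTPRE and PTPRJ. The mesenchymal score was -0.88 in SH-SY5Y and 5.62 in SK-N-SH, and its part in these ratios was not tested. IMR5-75 was at least 4-fold higher than IMR32 for 3 of 32 members, beside 4.64% of 15179 genes. These were PTPRK (43.8 CPM in IMR5-75 against 4.39 CPM in IMR32), PTPN14 (29.2 CPM in IMR5-75 against 3.74 CPM in IMR32) and PTPRF (553 CPM in IMR5-75 against 80.1 CPM in IMR32). IMR5-75 was at least 4-fold lower for 1 of 32, beside 4.09%, namely PTPRT (0 counts in IMR5-75 against 71 counts in IMR32). PTPRK and PTPN14 were lower in SH-SY5Y than in SK-N-SH, and higher in IMR5-75 than in IMR32.

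**Figure D5:**
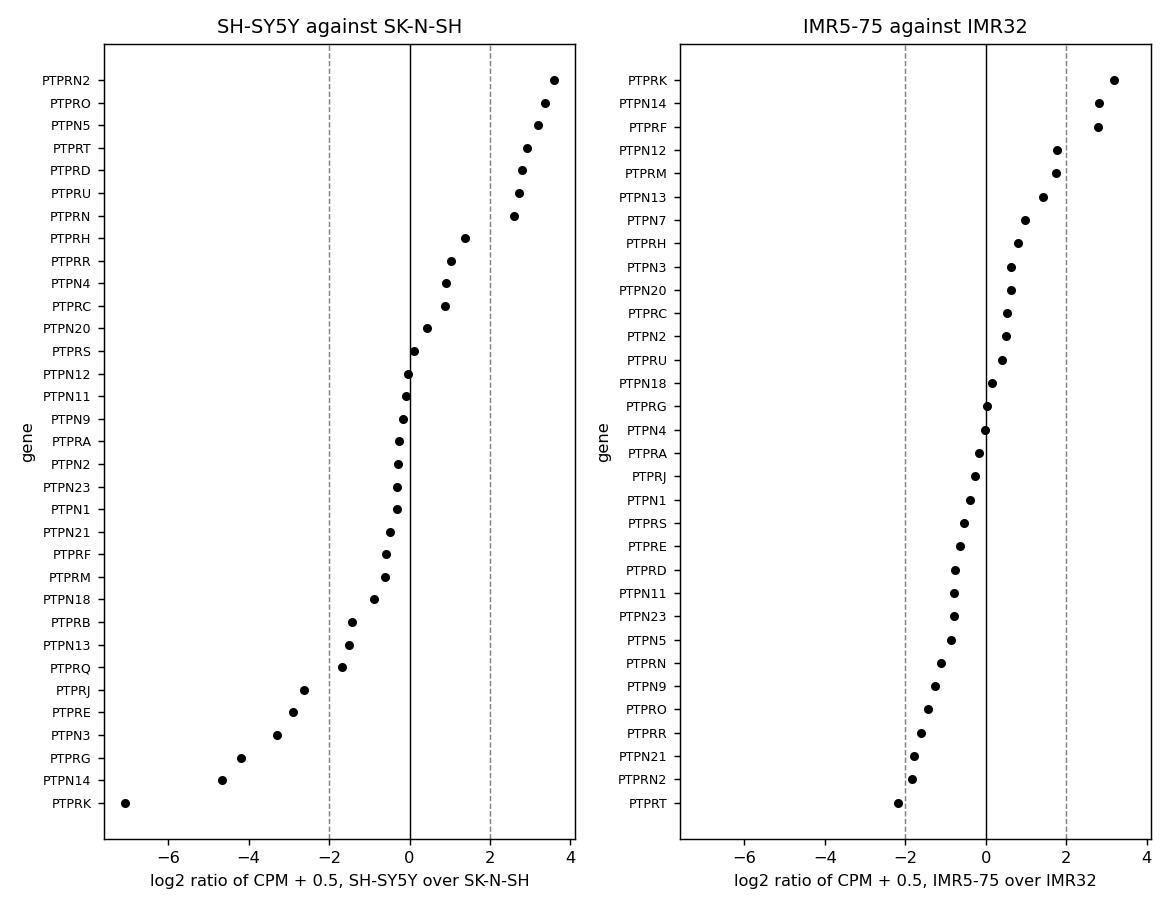
Log2 ratio of CPM + 0.5 of each member (rows) in SH-SY5Y over SK-N-SH (left) and IMR5-75 over IMR32 (right), with dashed lines at 4-fold. PTPRK is lowest on the left (-7.06) and highest on the right (3.18).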

How the data were processed

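Per the labels, RNA extraction used TRIzol and library construction followed TruSeq. kallisto 0.44.0 and DESeq2 1.48.2 are listed, with the build GRCh38, in the submitters' processing notes, with no step given for either tool. The deposited table of estimated counts holds whole numbers for 20049 symbols and was read in the unit of expected counts, which rests on the values; the authors' table of log2 values (variance-stabilised by its name) served only as an alternative scale. Annotation, strand setting and filters were not stated in those sources. No column lacked a sample (0 such columns).

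CPM used TMM factors in edgeR 4.0.16 (R 4.3.3), with a prior count of 2 for log2 CPM. The slope fits used filterByExpr, edgeR's quasi-likelihood test and Benjamini-Hochberg adjustment over all genes tested, with a threshold of 0.05, in 12 lines. Genes that make up a score were left out of its fit. The length and GC trend of each library was removed with splines over stable genes, with GENCODE 29 transcripts (98.8% of symbols matched). Of 91 library pairs none was alike (smallest chi-square per gene 273). The fits were tested on simulated counts. As alternatives, the fits were repeated with DESeq2's size factors, with DESeq2 1.42.0, with limma 3.58.1 on the deposited log2 values, with no filter, with all 14 lines, the subclones in place of their parents, the trend removed, and each line left out.

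The 36 members, the lists and the rule for named genes were chosen with earlier results of these data known. The rule named every member, the members of the lists, the coding genes within 1 Mb of PTPRC and the 5 genes most like it. The genes of the chromosome 12 stretch were named after their values were seen. P-values measure the spread between lines, which includes any technical difference between single libraries.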

Additional observations from a re-analysis of the deposited data

How the results depend on the processing

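PTPRC in SK-N-AS was at 463 CPM with DESeq2's size factors, 499.7 CPM by library total alone and 439 CPM with the length and GC trend removed, against 469.6 CPM. Of the 35 highest levels of the other members, 30 stayed within their counting interval under DESeq2's size factors (ratios 0.98 to 1.05) and 15 with the trend removed (0.56 to 1.45); the cause was not tested. Genes called on the mesenchymal score numbered 1069 (656 rising), against 2894 with DESeq2 (1110 rising), 687 with the subclones in place of their parents and 571 without Lan-6 and GI-ME-N, a choice made after seeing the data. Leaving out 1 line gave 450 to 1727. The phosphatases among them numbered 4, against 9 with DESeq2, 2 without both libraries and 2 to 6 with 1 line left out. On MYCN, 641 genes were called, against 3137 with DESeq2, 413 with limma, 1276 with all 14 lines, 0 with the subclones, 163 without both libraries, and 0 to 1529 with 1 line left out. Phosphatases called on MYCN were 0, against 7 with DESeq2, 2 with all 14 lines, 2 with the trend removed and 0 to 2 with 1 line left out. On antigen presentation 0 genes were called, against 3 with DESeq2's size factors, 1309 with DESeq2, 9 with no filter, 73 with all 14 lines, 14 without both libraries and 0 to 16 with 1 line left out. Its phosphatases were 0, against 4 with DESeq2 and 0 to 0 with 1 line left out. The PTPRC slope on MYCN ran from -2.75 to 0.67 with 1 line left out, and was reversed without SK-N-AS alone. The members with a highest line at 10 times the median were 7, and 6 to 9 with 1 line left out. No paired test was run, because the labels give 1 group and each parent and subclone is 1 library.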

Other observations

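Outside the rule, PTPRZ1, a receptor phosphatase of glia that binds pleiotrophin, was at 24.6 CPM in NGP and had a 14-line median of 0.212 CPM. In SK-N-AS, the line with CD45, 2 other phosphatases of this list had their highest level. They were DUSP6, which inactivates the MAP kinase ERK, at 261 CPM against a median of 28.9 CPM, and PTP4A3 (PRL-3) at 143 CPM against 20.5 CPM. The highest other line held 116 CPM of DUSP6 and 58.0 CPM of PTP4A3. DUSP4, another MAP kinase phosphatase, was at 1285 CPM in SK-N-FI against a median of 87.1 CPM. EYA4, a tyrosine phosphatase and transcriptional co-activator, was at 161 CPM in LS and had a median of 28.0 CPM. These values have no replicate check and were chosen after they were seen.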
